A study of Mus musculus with 24 samples.

Results

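The potassium channel family of the mouse was followed here through its Kcn genes in the medial prefrontal cortex. The members were all protein-coding genes of the deposited table whose symbol starts with Kcn, which gave 76 of 15456 genes. By symbol, 26 were voltage-gated channels (Kcna to Kcnd, Kcnq and Kcnh), 11 were inward rectifiers (Kcnj) and 10 were tandem-pore leak channels (Kcnk). The other members were 9 silent modifiers (Kcnf, Kcng, Kcns and Kcnv), 7 calcium- or sodium-activated channels (Kcnma, Kcnn, Kcnt and Kcnu) and 13 auxiliary or regulatory genes (Kcnab, Kcnip, Kcne, Kcnmb and Kcnrg). Of the 76, 75 had a mean of at least 10 normalized counts and were tested, and Kcnk5, a leak channel gene, was left out with a mean of 8.88 and values between 0 and 23.7. The 3 Kcn antisense RNAs of the table were not members.

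Voltage-gated potassium channels open when the membrane depolarizes and set the shape and the spacing of action potentials, whereas tandem-pore channels are open at rest and hold the resting potential. Inward rectifiers include the channels that neuronal G protein-coupled receptors open, the channels by which astrocytes take up extracellular potassium, and the channels that ATP closes. Silent modifiers form no channel alone but join Kcnb subunits, and auxiliary subunits change the gating and the trafficking of the pore-forming proteins.

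The samples were medial prefrontal cortex of 24 male BALB/C mice at postnatal week 11, in 4 groups of 6. The control mice received phosphate-buffered saline, the second group received daily injections of duloxetine, a serotonin and noradrenaline reuptake inhibitor, at 10 mg/kg, the third received the gut bacterium Ruminococcus flavefaciens by gavage, and the fourth (combined) received both. Treatment lasted 21 days. Each mouse was 1 library, with between 12811413 and 15607343 reads on the genes of the table. Duloxetine and combined mice had more reads than controls, with medians of 14536037 and 14621656 against 13591497 (exact permutation tests, two-sided, p = 0.00433 each), and the R. flavefaciens median was 13943370 (p = 0.738). Values are counts divided by 1 size factor per mouse ("normalized counts"), and levels are compared between genes per kilobase of exon, except that genes which overlap on opposite strands are set side by side in normalized counts. The tissue was bulk, so fewer cells of a type and less RNA per cell cannot be told apart in any value below. The first number of a mouse's label is never shared between groups, so whatever it marks cannot be told apart from treatment.

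The cortical label was checked against marker genes. All 6 excitatory neuron markers were present in every mouse, led by Camk2a with a mean of 52794 normalized counts (48384 to 63156), and all upper- and deep-layer markers were detected. The choroid plexus transcript Ttr ranged from 0 to 657.

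A pair of R. flavefaciens mice stood apart, 8_4 and 9_3, which had the lowest sums of normalized counts of the 24 (13536600 and 13669900, against 13780900 to 14568500 in the others). Mouse 8_4 had 4720 summed counts of the 6 striatal markers, against a group median of 1365, and 791 counts of choroid plexus markers, against 85.5. The largest difference between any of 60 pairs of mice of 1 group was that between 9_1 and 9_3, with a chi-square of 25.9 per degree of freedom, against 2.07 for the closest pair. Counts of Kcn genes called or at an unadjusted p under 0.05 that include the R. flavefaciens group are therefore also given without both mice, a choice made after the data were seen. In the combined group, mouse 11_4 had the next lowest sum (13780900) and 2748 striatal counts, against a group median of 1493. Mice 12_2 and 12_4 of that group had a chi-square of 20.8, higher than any pair with 8_4 (at most 15.3).

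Kcn transcripts spanned a wide range of levels. The family median was 115 normalized counts per kb, against 63.4 over all genes tested, and 45 of the 76 genes were above that value. The voltage-gated class held the highest median (216 per kb) and 40.2% of the summed Kcn level. The inward rectifiers had a median of 113 and 20.9% of the sum, and the tandem-pore genes a median of 34.0 and 5.87%.

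The single highest level was that of Kcnab2, the beta subunit that binds Kcna channels, at 1068 ± 49.5 per kb (SD over 24 mice). It was followed by Kcnj4, a strong inward rectifier of forebrain neurons (826 ± 64.4), and Kcnj10, the main inward rectifier of astrocytes (792 ± 105), and these neighbours in the order differed by less than 1 SD. Kcnf1, a silent modifier, was at 629 ± 72.2 and Kcnj9 at 560 ± 35.3, which is also less than 1 SD apart.

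Voltage-gated genes of high level included Kcnh3, an EAG-related channel of the forebrain (472 ± 34.9), Kcna2 (470 ± 37.1) and Kcnc4 (392 ± 25.5). Kcna2 forms axonal low-threshold channels, and Kcnq3 (237 ± 29.6) and Kcnq5 (229 ± 27.3) contribute to the M-current. Kcnc1 (312 ± 20.7) and Kcnc2 (267 ± 14.9), which allow fast spiking in interneurons, and Kcnd2 (294 ± 22.7), which carries A-type current, were above the class median, and Kcnd3 (168 ± 20.1), also of the A-type, was below it. Their cytoplasmic partners Kcnip3 (437 ± 40.9), Kcnip2 (361 ± 32.3) and Kcnip4 (199 ± 21.1) were of the same order as Kcnd2.

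Leak channels were led by Kcnk1 (305 ± 22.3), Kcnk2 (140 ± 10.4), Kcnk3 (134 ± 9.56), Kcnk12 (117 ± 17.3) and Kcnk4 (39.9 ± 4.25), and the acid-sensitive Kcnk9 was at 19.1 ± 3.69. Kcnk2 and Kcnk3 differed by less than 1 SD. Kcnk3 is overlapped on the other strand by Gm9899 (mean 348 normalized counts against 532 for Kcnk3), and since the library kit did not mark strand, reads of the pair cannot be told apart. The large-conductance calcium-activated channel Kcnma1 stood at 294 ± 35.9, its sodium-activated relatives Kcnt1 and Kcnt2 at 157 ± 15.3 and 87.6 ± 12.7, and the small-conductance channels Kcnn2 and Kcnn3 at 52.5 ± 4.78 and 32.3 ± 4.70. Among the other silent modifiers Kcnv1 was at 405 ± 51.8 and Kcng1 at 132 ± 23.3. In all, 40 genes were at 100 per kb or more and 7 were under 10, the lowest being Kcnmb1, a beta subunit of the Kcnma1 channel, at 2.39.

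**Figure D1:**
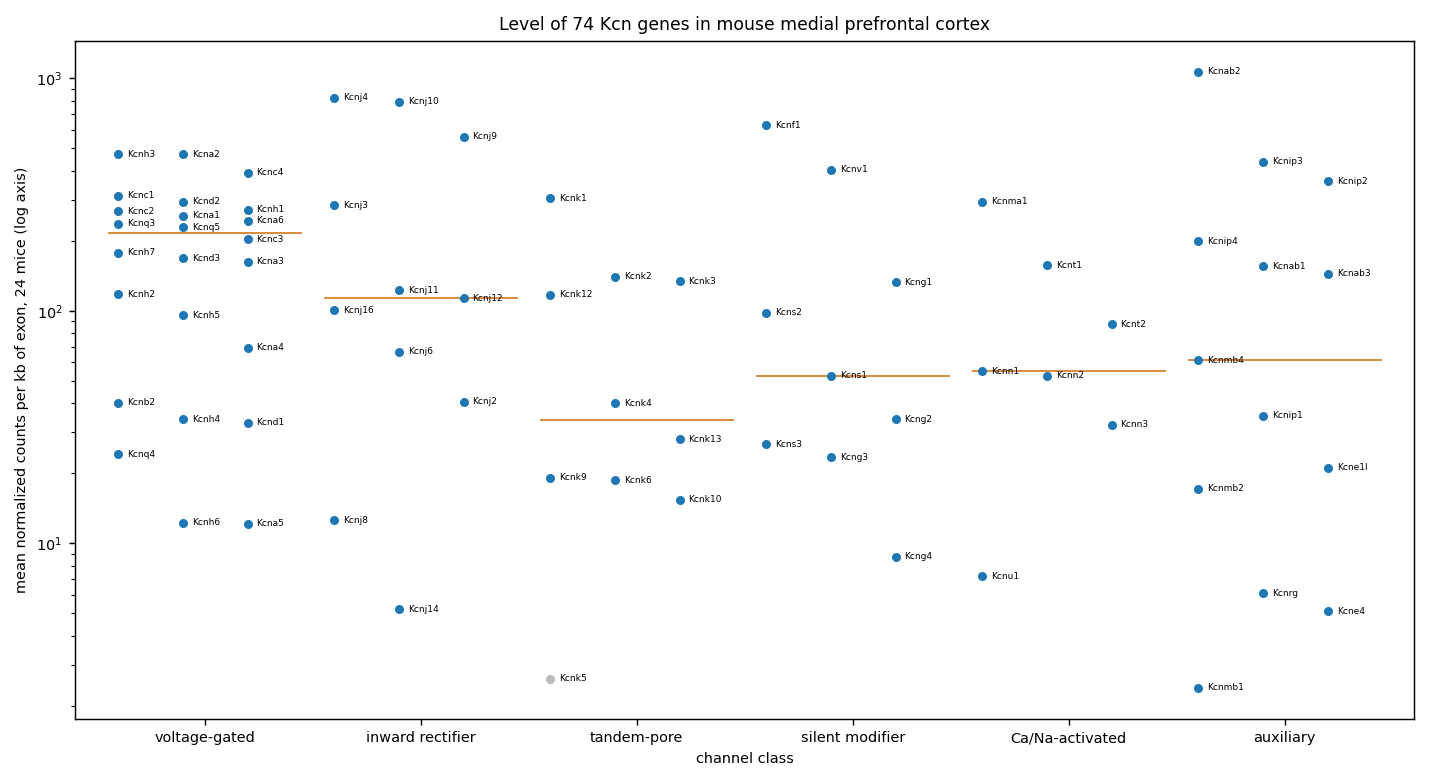
Mean level of 74 of the 76 Kcn genes over 24 mice, in normalized counts per kb of exon on a log axis, by class. Orange lines are medians over all members of a class (216 for voltage-gated, 113 for inward rectifier and 34.0 for tandem-pore genes), and the grey point is Kcnk5, which was not tested.

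The spread between mice was read in each group, without a test. The median coefficient of variation of the 75 tested genes was 7.50% in control mice and 9.22% in duloxetine mice, against 13.8% in each of the R. flavefaciens and combined groups. Over all genes tested these medians were 8.02%, 8.86%, 12.4% and 10.6%. Without mice 8_4 and 9_3 the R. flavefaciens medians were 10.6% for the Kcn genes and 9.61% for all genes.

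**Figure D2:**
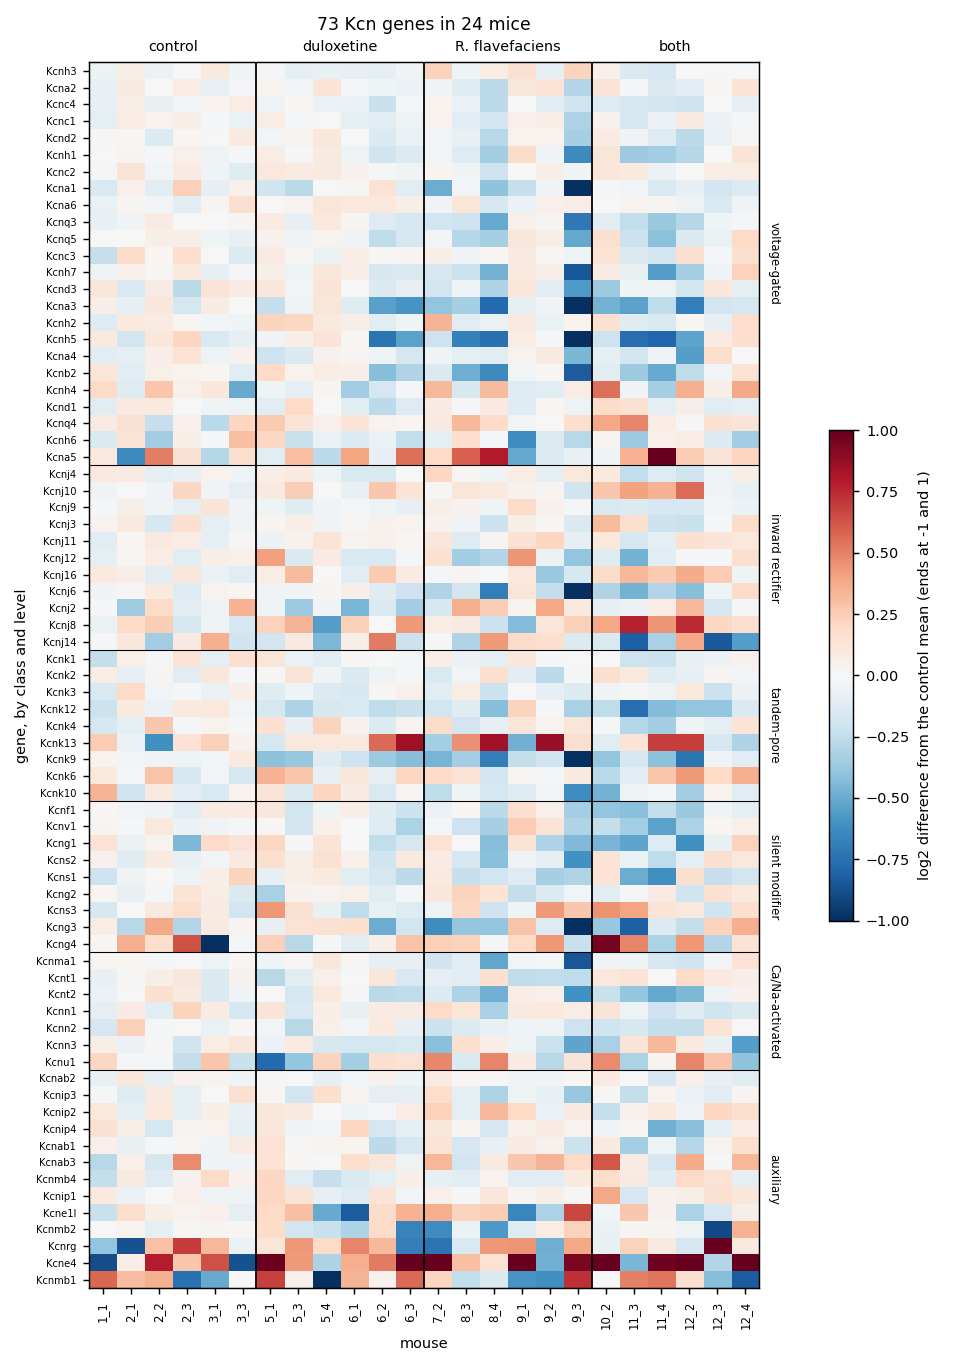
Log2 difference from the control mean of the gene in every mouse (columns, by group) for 73 of the 75 tested Kcn genes (rows, by class and level), with colours ending at -1 and 1. Mouse 9_3 shows low values through most voltage-gated rows, with a class mean of -0.46.

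Duloxetine was first compared with control to ask which subunits the drug alone moved. No Kcn gene passed an adjusted p of 0.05 (limma, Benjamini-Hochberg over 14974 genes), and neither did any other gene of the table (0%). At an unadjusted p under 0.05 there were 3 Kcn genes, all lower, which is 4% of 75 against 1.63% of all genes, and none was higher, against 2.2%. Leaving out 1 mouse gave 0 to 3 lower genes (0 without duloxetine mouse 5_3, and 1 without control 1_1, 2_1, 2_2, 3_1 or 3_3 or duloxetine 6_2 or 6_3) and 0 to 1 higher ones (1 without control 3_3). edgeR and DESeq2 on reads recovered from the normalized counts also called 0 Kcn genes and had 3 each at that unadjusted level.

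The 3 were Kcnk12, Kcnk9 and Kcnj2. Kcnk9 encodes an acid-sensitive leak channel of the TASK group. Its values ran from 273 through a median of 277 to 303 normalized counts in control mice and from 210.0 through 219 to 260.4 in duloxetine mice. All 6 duloxetine mice were thus below all 6 controls, a separation found in 0.167% of genes in that direction and in 0.167% in the other. The log2 fold change was -0.32 ± 0.15 (SE), with limma's adjusted p at 1.00. In a DESeq2 fit of these 2 groups alone the adjusted p was 0.0173. Kcnj2, a classical strong inward rectifier, had -0.23 ± 0.11, and Kcnk12, a halothane-inhibited leak channel, -0.21 ± 0.09, both with groups that overlapped. The genes with the smallest unadjusted p among higher ones were Kcna6 (0.07 ± 0.05), Kcne4 (0.53 ± 0.38) and Kcnj10 (0.11 ± 0.09), each within the spread between mice.

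R. flavefaciens was then compared with the same control mice. By limma no Kcn gene was called, against 0.0267% of all genes (4 of 14974). edgeR called 0 (11 at an unadjusted p under 0.05) and DESeq2 called 1, Kcnk9, against 3.26% of all genes by DESeq2. At an unadjusted p under 0.05, 14 Kcn genes were lower, 18.7% of 75 against a background of 10.8%, and none was higher, against 8.86%. Leaving out 1 mouse gave 7 to 19 lower genes (7 without 9_3, against 6.13% of all genes, and 19 without 9_1). It gave 0 to 3 higher ones (3 without 8_3 or 9_2, 4% against 9.77% and 10.3% of all genes). Quantile normalization gave 11 lower and 2 higher genes. The share of all genes is not given here without 9_1 or under quantile normalization. The higher genes with the smallest p were Kcnh3 (0.09 ± 0.05), Kcnip2 (0.11 ± 0.07) and Kcne4 (0.60 ± 0.38), each within the spread between mice. The median log2 fold change of the family was -0.07, beside 0.00 over all genes tested.

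The voltage-gated class held 8 of those 14 genes, with a class median of -0.10, and the inward rectifiers and the leak channels held 1 each, with medians of 0.02 and -0.07. The largest negative log2 fold changes in the voltage-gated class were those of Kcnh5 (-0.60 ± 0.25), Kcna3 (-0.55 ± 0.18), Kcna1 (-0.43 ± 0.14) and Kcnb2 (-0.35 ± 0.13). Kcna1 and Kcna3 encode low-threshold channels of axons and terminals, and Kcnb2 a delayed rectifier. Kcnq3 (-0.26 ± 0.09) and Kcnh7 (-0.26 ± 0.12) were also among the 8. Among the other classes, the silent modifiers Kcng3 (-0.58 ± 0.27) and Kcns2 (-0.21 ± 0.09) and the sodium-activated Kcnt2 (-0.24 ± 0.11) were among the 14.

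Kcna1 ranged from 1201 through 1317 to 1577 normalized counts in control mice and from 505 through 1074 to 1309 in R. flavefaciens mice. Its groups overlapped, with 4 of 6 R. flavefaciens mice below every control and mouse 9_3 the lowest (limma adjusted p = 0.107). Kcna3 ranged from 327 through 376 to 398 in controls and from 115 through 286 to 359 after the bacterium, again with mouse 9_3 lowest and 4 of 6 mice below every control (adjusted p = 0.108). Without mice 8_4 and 9_3 the log2 fold change was -0.20 for Kcna1 and -0.21 for Kcna3.

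Kcnma1 lay between 5077 and 5334 in all controls, with a median of 5304.5, and between 2901 and 5219 in R. flavefaciens mice, with a median of 4745. The 2 lowest values were those of mice 9_3 and 8_4, and the log2 fold change of -0.29 ± 0.10 became -0.08 without them. Kcnj6, a pore subunit of the G protein-gated channels, was at 516, 571 and 603 (lowest, median and highest) in controls and at 200.5, 468 and 613 after the bacterium, where 5 of 6 mice were below every control. Its change of -0.46 ± 0.16 became -0.15 without both mice. The same step took Kcnq3 from -0.26 to -0.08.

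Kcnk9 was the single Kcn gene whose groups did not overlap. R. flavefaciens mice were at 99.7, 214 and 246 normalized counts (lowest, median and highest), all below the lowest control at 273. That separation was found in 0.835% of genes in the lower and 0.788% in the higher direction. The log2 fold change was -0.57 ± 0.15 with a limma adjusted p of 0.0727, and DESeq2 gave -0.51 with an adjusted p of 0.0210. Without mice 8_4 and 9_3 the change was -0.31 with a limma adjusted p of 0.395. The duloxetine and R. flavefaciens comparisons of Kcnk9 share the same 6 controls, and the gene lies on chromosome 15 at 72512119 to 72546279 (GRCm38, minus strand).

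Without these 2 mice no gene at all was called by limma in this comparison (0%), and 4 Kcn genes were lower at an unadjusted p under 0.05, 5.33% of 75 against a background of 4.86%. They were Kcnk9, Kcnt1, Kcna1 and Kcnk2. The family median was then -0.01 and that of the voltage-gated class -0.01, with 1 of its 26 genes under that p, and all 14 genes had values nearer to 0. Without mouse 9_3 alone the family median was -0.03 with 7 such genes, 9.33% of 75 against a background of 6.13%. Without mouse 8_4 alone it was -0.04 with 10 genes, 13.3% against 9.08%.

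Fold changes in this comparison varied with transcript length. Across all 14958 genes with a length, the log2 fold change and exonic length had a Spearman correlation of -0.44, and across the 75 Kcn genes it was -0.43, a description over genes that share the same 12 libraries. The voltage-gated class had a median exonic length of 5850.5 bases, against 4444 over all genes tested, 3936 for inward rectifiers and 4063.5 for leak channels. With the length trend taken out of every library, 6 Kcn genes were at an unadjusted p under 0.05, all lower, and the family median was -0.06. These were 8% of the family, against 6.04% of all genes in the lower direction under that setting, and 3 of them were among the 26 voltage-gated genes, where the class median was -0.09. The part of length in the differences was not tested.

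Deep-layer neuron markers were read beside the voltage-gated genes. All 6 of the list (Fezf2, Tle4, Foxp2, Bcl11b, Etv1 and Ntsr1) had negative log2 fold changes, with a median of -0.28 and 4 at an unadjusted p under 0.05 (10.8% of all genes were lower at that p), and none was called. All 6 were still negative without mice 8_4 and 9_3, with a median of -0.24. Their summed level was 5304, 5824 and 6117 (lowest, median and highest) in controls and 4306, 4681 and 5884 after R. flavefaciens, with Bcl11b the most abundant and none at 0. Excitatory neuron markers had a median of -0.05, with 1 of 6 lower at an unadjusted p under 0.05, and upper-layer markers one of -0.04, with none. Without mice 8_4 and 9_3 these medians were 0.02 and 0.05, with 2 of 6 and 2 of 5 markers negative and none at that p.

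Inhibitory neuron markers were read as well. Of 7 markers 5 were positive and 2 negative, with a median of 0.10, and 3 were higher at an unadjusted p under 0.05 (8.86% of all genes were), namely Pvalb (0.44), Sst (0.34) and Slc32a1 (0.16), while none was called. Their summed level was 9723, 10323 and 11066 normalized counts in controls and 10617, 11264 and 11745 after R. flavefaciens, with Gad1 the most abundant and none at 0, and these ranges overlapped. The median was 0.09 without mice 8_4 and 9_3, with 2 markers under that p. The part of these neurons in the Kcn values was not tested.

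**Figure D3:**
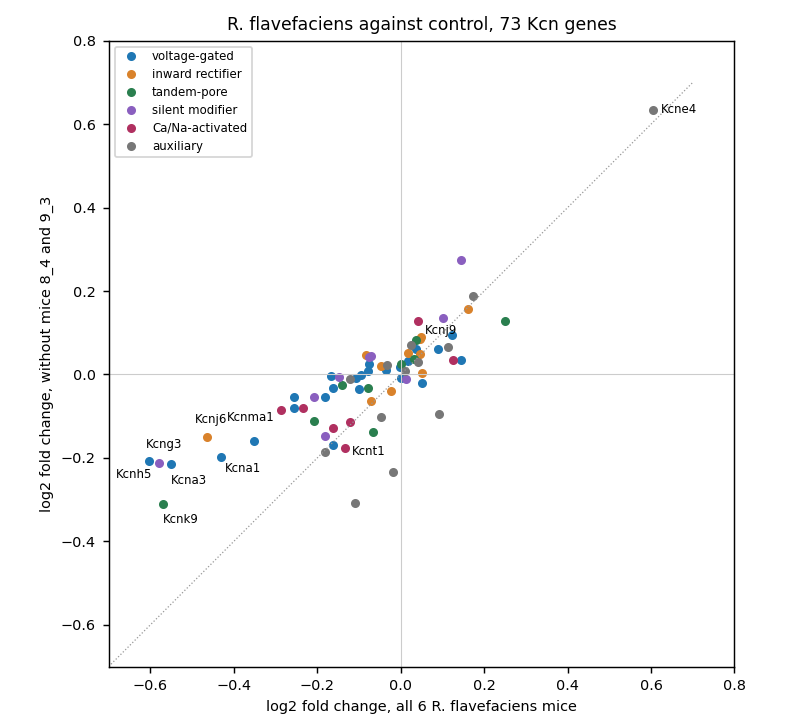
Log2 fold change of 73 of the 75 Kcn genes for R. flavefaciens against control, with all 6 mice (horizontal axis) and without mice 8_4 and 9_3 (vertical axis), coloured by class; the dotted line marks equal values. The 12 genes shown with an unadjusted p under 0.05 all lie nearer to 0 on the vertical axis, and Kcnk9 moves from -0.57 to -0.31.

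**Figure D4:**
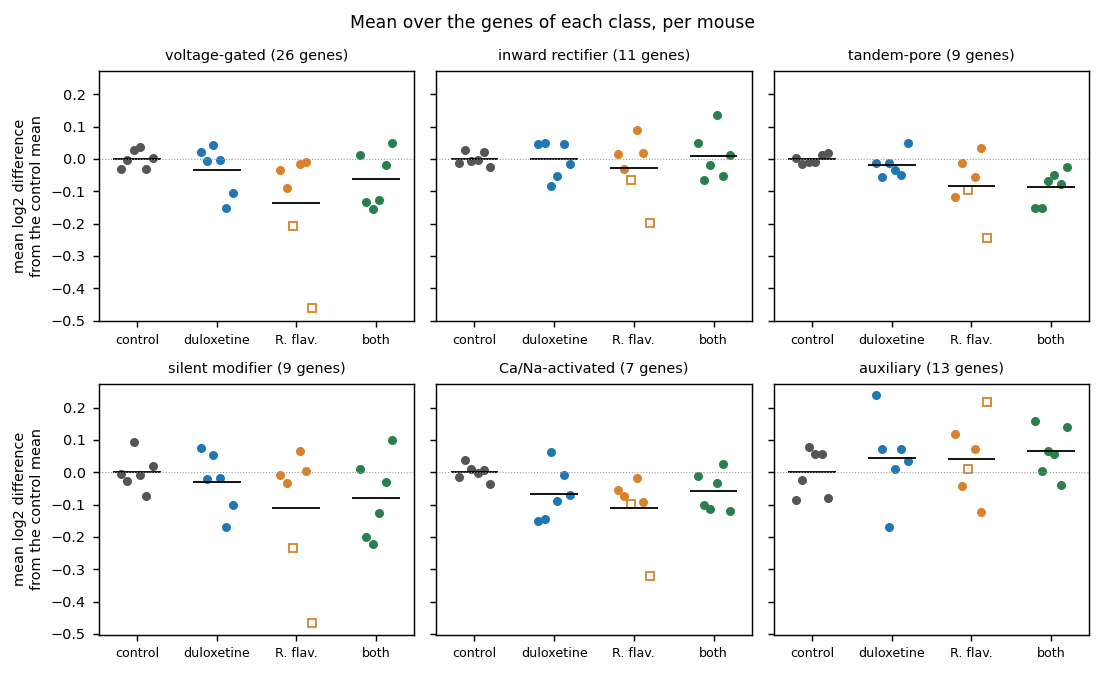
Mean log2 difference from the control mean over the tested genes of each class, 1 point per mouse, with lines at group means and open squares for mice 8_4 and 9_3. The voltage-gated mean of mouse 9_3 is -0.46 and that of 8_4 is -0.21, while the other 4 R. flavefaciens mice lie between -0.09 and -0.01.

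The combined treatment was compared with control next. By limma no Kcn gene was called, against 0.1% of all genes. edgeR called 0 (11 at an unadjusted p under 0.05), and DESeq2 called 1, Kcnk12, against 1.45%. At an unadjusted p under 0.05, 8 Kcn genes were lower (10.7% of 75, against 8.73% of all genes) and 3 were higher (4%, against 8.08%). The lower count depended on the setting. It was 13 without mice 8_4 and 9_3 (17.3%, against 12.1% of all genes) and 13 with the length trend removed (17.3%, against 12.2%). It was 14 with only these 2 groups in the fit (18.7%, against 11%) and 12 on leaving out mouse 12_4. It was 5 with 75th percentile rescaling (6.67%, against 4.63%), without mouse 11_4 (6.67%, against 7.87%) or without control 3_3. The shares of all genes without 12_4 and without control 3_3 are not given here. No Kcn gene separated the groups fully, which 1.16% of genes did in the lower and 0.882% in the higher direction. The family median was -0.06, and the class medians were -0.09 for voltage-gated, 0.01 for inward rectifier and -0.08 for leak channel genes.

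The mean over the leak channel genes, which was not tested, was read by mouse. This mean log2 difference over the 9 tested genes lay between -0.15 and -0.02 in the 6 combined mice, each below the lowest control at -0.016, whereas 4 of 6 R. flavefaciens mice and 3 of 6 duloxetine mice were below it. In the combined group the same count was 3 of 6 for the voltage-gated, silent modifier and calcium- or sodium-activated classes, 2 for the inward rectifiers, 0 for the auxiliary subunits and 4 for all Kcn genes. The leak channel mean rested on Kcnk12 and Kcnk9. Over the other 7 genes the group mean was -0.01, with mice between -0.10 and 0.10 and 3 of 6 below every control. Kcnk12 had the largest log2 fold change of these 9 genes. It was at 225, 267 and 281 normalized counts (lowest, median and highest) in controls, at 154, 199 and 236 in the combined group, at 211, 227 and 235 after duloxetine and at 194, 234 and 305 after R. flavefaciens. In the combined group 5 of 6 mice were below every control, the log2 fold change was -0.40 ± 0.09 and the limma adjusted p 0.0720. DESeq2 gave an adjusted p of 0.0170. Kcnk9 had -0.31 ± 0.15 here, with values from 170.4 through 233 to 276, and 5 of 6 mice below every control.

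Silent modifiers showed the lowest class median, -0.16. Kcnf1 ranged from 2974 through 3183.5 to 3394 in controls and from 2398 through 2597 to 3108 in the combined group (-0.26 ± 0.08, limma adjusted p = 0.125), with 4 of 6 mice below every control. Kcnv1 had -0.23 ± 0.10 and Kcng1 -0.26 ± 0.13, the latter with an unadjusted p of 0.0600. The remaining genes under 0.05 on the lower side were Kcna3 (-0.38 ± 0.18), Kcnt2 (-0.26 ± 0.11), Kcnc4 (-0.13 ± 0.05) and Kcnj9 (-0.12 ± 0.04). This comparison and that of R. flavefaciens alone share their control mice. All 6 deep-layer neuron markers were negative here, with a median of -0.17. Of these 2 were lower at an unadjusted p under 0.05 (8.73% of all genes were), and none was called. Excitatory neuron markers had a median of -0.11, with 4 of 6 negative and none at that p. The part of these neurons in the Kcn values was not tested.

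Without mice 8_4 and 9_3, which belong to another group and enter only through the shared estimate of the spread, limma called 2 Kcn genes in this comparison, Kcnk12 (adjusted p = 0.0235) and Kcnf1 (adjusted p = 0.0386), against 2.26% of all genes.

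The 3 genes on the higher side were inward rectifiers. Kcnj10 and Kcnj16 encode subunits that form one astrocytic channel, and Kcnj8 encodes the pore of the ATP-sensitive channel of pericytes and vascular muscle. Kcnj10 was at 3712, 3894 and 4586 normalized counts (lowest, median and highest) in controls and at 3791, 4935 and 5869 in the combined group, with 4 of 6 mice above every control (0.25 ± 0.09, limma adjusted p = 0.171). Kcnj16 had 0.23 ± 0.08, with 5 of 6 mice above every control (adjusted p = 0.176). Kcnj8 was at 25.05, 27.3 and 33.9 in controls and at 32.0, 38.2 and 49.2 in the combined group, also with 4 of 6 mice above every control (0.45 ± 0.16, adjusted p = 0.179). Abcc9, the sulfonylurea receptor that joins the Kcnj8 product, had 0.39 ± 0.12 (adjusted p = 0.136).

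The markers of the cells that carry these channels were read beside them. All 6 astrocyte markers had positive values against control, with a median of 0.15, 1 at an unadjusted p under 0.05 (8.08% of all genes were higher at that p) and none called. Their sum was 56749, 58357 and 66878 in controls and 56052, 65498 and 77688 in the combined group, with Slc1a2 the most abundant. Of 7 endothelial and pericyte markers 6 were positive, with a median of 0.12, 2 at an unadjusted p under 0.05 and none called, and their sum was 4573, 5100.0 and 5409 in controls and 4759, 5592 and 7050 in the combined group, with Rgs5 the most abundant. No marker of either list was at 0 in any mouse. Oligodendrocyte markers varied widely between mice, with sums of 13233, 22465 and 36445 in controls and 10891, 25702 and 49392 in the combined group, Mbp being the most abundant. Of those 6 markers 5 were positive, with a median of 0.11 and none at an unadjusted p under 0.05. In the combined group mice 11_3, 11_4 and 12_2 had the highest sums (30775, 43177 and 49392) and also the highest Kcnj10 (5259, 5082 and 5869), and mice 12_3 and 12_4 the lowest sums (13775 and 10891) and the lowest Kcnj10 (3883 and 3791). Astrocyte sums were also highest in mice 11_3, 11_4 and 12_2 (72287, 67582 and 77688) and lowest in 12_3 and 12_4 (61567 and 56052). Endothelial and pericyte sums had the same highest mice (6427.5, 5638.7 and 7049.9) and the same lowest ones (5027.4 and 4759.1). The match of Kcnj10 with oligodendrocyte sums was not found in every group. Control mouse 2_3 was highest in both (4586 and 36445). Duloxetine mouse 6_1 had the lowest Kcnj10 of its group (3775) at a sum of 28401, against 4728 and 18995 in 5_3. R. flavefaciens mouse 9_3 had the lowest Kcnj10 of its group (3461) at 28869, against 4095 and 12282 in 9_1. The part of these cells in the Kcnj values was not tested.

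Finally the combined group was compared with R. flavefaciens alone, which asks what the drug changed in mice that had the bacterium. Here limma called 2 Kcn genes of 75 (2.67%), against 2.23% of all genes, and edgeR called the same 2, against 2.18%. DESeq2 called 3, against 4.17%, with Kcnt1 as the third. At an unadjusted p under 0.05, 6 Kcn genes were lower (8%, against 9.9%) and 7 were higher (9.33%, against 9.76%), so the family's shares lay close to those of all genes. Without both mice these counts were 6 (8%, against 10.5%) and 5 (6.67%, against 9.76%), and with only these 2 groups in the fit 2 (2.67%, against 6.28%) and 4 (5.33%, against 7.07%). Leaving out 1 mouse gave 2 to 8 lower genes (2 without 9_1, and 8 without 12_4 or without 8_4, the latter against 10.7% of all genes). It gave 4 to 10 higher ones (4 without 9_3 and 10 without 9_1). The shares of all genes for the other counts on leaving out 1 mouse are not given here. No Kcn gene separated the groups fully, against 0.828% of genes in the lower and 0.614% in the higher direction.

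Kcnj9 fell. It encodes a subunit of the G protein-gated inward rectifier that GABA and serotonin receptors open in neurons. R. flavefaciens mice were at 2379, 2525 and 2802 normalized counts (lowest, median and highest) and combined mice at 2179, 2215 and 2410.1. In the combined group 5 of 6 mice were below every R. flavefaciens mouse. The log2 fold change was -0.17 ± 0.04 with a limma adjusted p of 0.0415, and an exact permutation test over the 12 mice, two-sided, gave p = 0.00433. That permutation p is unadjusted. The test was run only on Kcn genes already called in these mice, so it is no separate support. Control mice lay between at 2307, 2401 and 2677, and duloxetine mice at 2256, 2371 and 2423. The other subunits of that channel were Kcnj3 and Kcnj6, with log2 fold changes of 0.08 ± 0.07 and 0.24 ± 0.16, each within the spread between mice, and without mice 8_4 and 9_3 these were 0.01 and -0.08. The antisense gene Gm36937 overlaps Kcnj9, with a mean of 9.40 normalized counts against 2400.1.

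Kcnj16, which pairs with Kcnj10 in astrocytes, rose. R. flavefaciens mice were at 289, 372 and 402 normalized counts (lowest, median and highest) and combined mice at 366, 448 and 484, with 5 of 6 above every R. flavefaciens mouse. The log2 fold change was 0.30 ± 0.08 and the limma adjusted p 0.0495. The exact permutation p, again unadjusted and computed only after the call, was 0.0108. Controls were at 348, 375 and 405 and duloxetine mice at 345, 396 and 467. Kcnj10 had 0.23 ± 0.09 (adjusted p = 0.142) and Kcnj8 0.48 ± 0.16 (adjusted p = 0.108). Astrocyte markers were read beside these genes. Of the 6 markers 2 were higher at an unadjusted p under 0.05 (9.76% of all genes were), Slc1a2 (0.26) and Aqp4 (0.18), none was lower at that p and none was called, while 3 were positive and 3 negative with a median of -0.02. Their summed level, most of it Slc1a2, was 44524, 59776 and 64693 in R. flavefaciens mice and 56052, 65498 and 77688 in combined mice. The median was 0.06 without mice 8_4 and 9_3, again with 2 markers under that p, and the part of these cells in the Kcnj16 value was not tested. The values of Kcnj10 and Kcnj8 were 0.19 and 0.49 without mice 8_4 and 9_3.

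Both calls were near the threshold, and without mouse 11_4 neither passed it (limma adjusted p = 0.0747 for Kcnj9 and 0.0759 for Kcnj16). In fits of these 2 groups alone Kcnj9 and Kcnj16 had limma adjusted p-values of 0.193 and 0.157, and over 36 other settings Kcnj9 was called in 25 and Kcnj16 in 15, always with the same sign. Without mice 8_4 and 9_3 limma called 4 Kcn genes, against 3.08% of all genes. These were Kcnj9 (-0.20), Kcnk12 (-0.37) and Kcnf1 (-0.31), which were lower, and the sodium-activated channel gene Kcnt1 (0.27), which was higher. Kcnj16 had 0.29 with an adjusted p of 0.0746 there. Kcnt1 was at 1264, 1339 and 1689.7 in R. flavefaciens mice and at 1506, 1619 and 1717 in combined mice, with mouse 8_4 the highest of the first group.

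**Figure D5:**
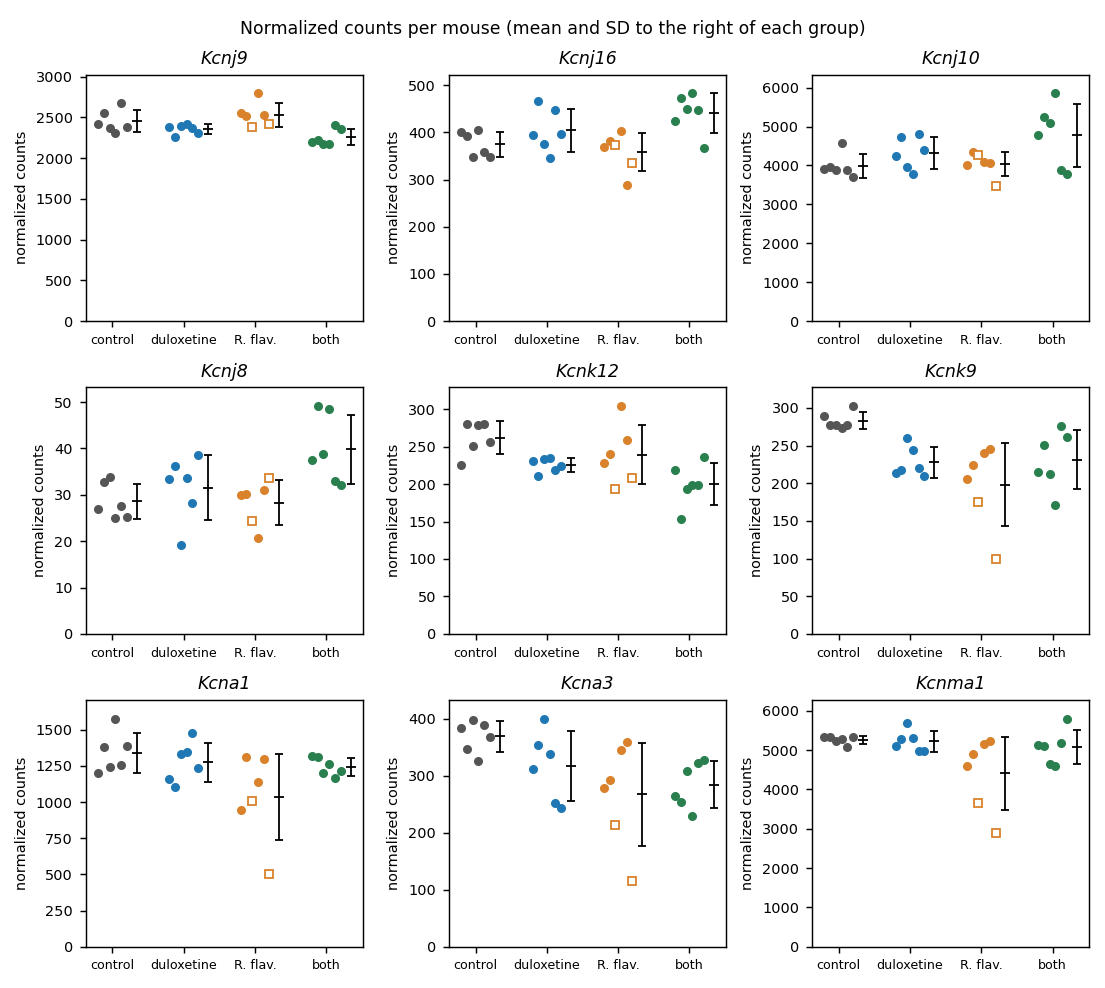
Normalized counts of 9 Kcn genes in each mouse by group, on axes that start at 0, with the mean and SD to the right of each group and open squares for mice 8_4 and 9_3. For Kcnk9 all duloxetine and R. flavefaciens mice lie below the lowest control at 273, and for Kcnj9 5 of 6 combined mice lie below every R. flavefaciens mouse.

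Kcnj9 and Kcnj10 are neighbours. Kcnj9 lies on chromosome 1 at 172320501 to 172329318 on the minus strand and Kcnj10 at 172341210 to 172374085 on the plus strand (GRCm38), so that they start back to back with 11891 bases between them. Kcnj16 lies on chromosome 11 at 110968033 to 111027968, 38195 bases before Kcnj2, which had a log2 fold change of -0.15 ± 0.11 in the combined group against R. flavefaciens. Kcnk12 lies on chromosome 17 at 87745837 to 87797994 on the minus strand.

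The promoters of Kcnj9 and Kcnj10, the adjacent pair with opposite signs, and of Kcnk12 are shown from RefSeq (GRCm38.p6), 250 bases before to 50 after the start, 5′ to 3′ on the strand of the gene. These 3 genes were chosen after their values were seen, and 54 of the 76 genes had an entry. Capitals mark matches, on either strand, to the GC box (GGGCGG), the TATA box (TATAAA), the CAAT box (CCAAT), the E-box (CACGTG) or the cyclic AMP response element (TGACGTCA), none of which overlap here. Kcnj9 spans chr1:172329273-172329572, Kcnj10 chr1:172340960-172341259 and Kcnk12 chr17:87797945-87798244.
Kcnj9: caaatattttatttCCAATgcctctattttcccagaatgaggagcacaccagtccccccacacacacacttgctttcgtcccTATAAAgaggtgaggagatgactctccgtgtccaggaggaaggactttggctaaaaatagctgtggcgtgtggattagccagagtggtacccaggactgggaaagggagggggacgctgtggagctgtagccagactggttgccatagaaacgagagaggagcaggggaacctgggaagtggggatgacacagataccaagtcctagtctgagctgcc
Kcnj10: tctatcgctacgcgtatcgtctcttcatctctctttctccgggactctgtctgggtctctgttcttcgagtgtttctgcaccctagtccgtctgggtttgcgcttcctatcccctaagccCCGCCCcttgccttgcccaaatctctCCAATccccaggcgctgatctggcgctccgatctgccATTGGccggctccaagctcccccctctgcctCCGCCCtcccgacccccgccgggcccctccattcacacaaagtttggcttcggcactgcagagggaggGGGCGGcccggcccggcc
Kcnk12: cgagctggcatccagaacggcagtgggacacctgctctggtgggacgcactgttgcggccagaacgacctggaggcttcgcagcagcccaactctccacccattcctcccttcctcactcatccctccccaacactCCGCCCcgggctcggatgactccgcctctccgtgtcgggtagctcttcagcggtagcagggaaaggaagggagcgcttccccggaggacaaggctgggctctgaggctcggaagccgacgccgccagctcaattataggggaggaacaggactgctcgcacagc

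The Kcnj9 window held 1 TATAAA and 1 CCAAT and was 52.3% G and C. The Kcnj10 window held 3 GGGCGG and 2 CCAAT at 63.7%, and the Kcnk12 window 1 GGGCGG at 64.3%. Over all 32544 RefSeq promoters of that length and different sequence, GGGCGG was found in 35.9%, CCAAT in 37.4%, TATAAA in 13.6%, CACGTG in 7.17% and TGACGTCA in 1.8%. A match is a description of letters and no site was measured.

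The remaining comparisons gave no limma call among Kcn genes. Combined treatment against duloxetine had 5 at an unadjusted p under 0.05 (6.67% of 75, against 5.9% of all genes), 2 lower and 3 higher, and no gene of the table called (0%). Leaving out 1 mouse gave 1 to 6 lower genes and 0 to 5 higher ones, with 6 and 5 without 12_4 (8% and 6.67%, against 4.48% and 4.33% of all genes), none higher without 12_2, and 1 of each without duloxetine mouse 6_3. Its smallest p was that of Kcnf1 (-0.20 ± 0.08). The interaction of the treatments had 2 (2.67% of 75, against 7.53% of all genes), Kcnt1 (0.29 ± 0.10) and Kcnk9 (0.58 ± 0.21), with adjusted p-values of 0.639 each, and again no gene called (0%). These values were 0.34 and 0.32 without mice 8_4 and 9_3, where 5 Kcn genes were at that p (6.67%, against 7.66%). Mean Kcnk9 was 283 ± 11.3 normalized counts (SD, n = 6) in control, 228 ± 20.2 in duloxetine, 198 ± 54.6 in R. flavefaciens and 231 ± 38.9 in combined mice.

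Over both levels of the other treatment, duloxetine had 8 Kcn genes at an unadjusted p under 0.05 (10.7% of 75, against 14.9% of all genes) and no limma call, against 1.03%. Without both mice 14 were at that p (18.7%, against 19.4%) and 3 were called (4%, against 2.02%). DESeq2 called 3, Kcnj9, Kcnj16 and Kcnk12, against 2.14%. limma gave Kcnj9 -0.11 ± 0.03 (adjusted p = 0.0706), Kcnj16 0.20 ± 0.06 (0.0815) and Kcnk12 -0.23 ± 0.07 (0.0836). R. flavefaciens had 18 at that unadjusted p, 24% of 75 against 18.1% of all genes, and no call, against 0.0267%. Of these 17 were lower (22.7%, against 10.4%) and 1 was higher (1.33%, against 7.68%), and without both mice 4 were lower (5.33%, against 5.86%) and 1 was higher (1.33%, against 4.45%). Without 9_3 alone 10 were lower, and the share of all genes under that setting is not given here. Kcnq3 had the smallest p of the 18 (-0.20 ± 0.07, and -0.11 without mice 8_4 and 9_3). edgeR called no Kcn gene in any of these 4 comparisons (6, 2, 8 and 16 at an unadjusted p under 0.05, in the order given), and DESeq2 none in combined against duloxetine, the interaction or R. flavefaciens overall (5, 2 and 16).

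Genes outside the family that serve potassium channels were read as a pair of lists. Of 26 partner proteins 25 were in the table, among them the scaffold Ank3 and the axonal protein Cntnap2. None was called after R. flavefaciens, where 20 were negative, 5 were lower at an unadjusted p under 0.05 (against 10.8% of all genes) and the median was -0.09, against -0.01 without mice 8_4 and 9_3. In the combined group against R. flavefaciens 1 of 25 was called (against 2.23% of all genes), Lrrc55, a gamma subunit of the Kcnma1 channel, which rose by a log2 of 0.40 ± 0.10 (adjusted p = 0.0406), and had 0.36 without mice 8_4 and 9_3 (adjusted p = 0.0811). Its mean was 140 ± 21.2 normalized counts (SD, n = 6) in R. flavefaciens mice, 184 ± 16.4 in combined mice and 186 ± 23.5 in controls, and Kcnma1 itself had 0.23 ± 0.10 in that comparison (adjusted p = 0.182), and 0.03 without both mice.

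Of 10 subunits of the sodium pump and chloride cotransporters, all were in the table and none was called by limma with all mice in the fit. Without mice 8_4 and 9_3, 1 of the 10 was called for combined against control, against 2.26% of all genes. The medians of the list were -0.03, 0.01 and -0.02 for R. flavefaciens against control, combined against control and combined against R. flavefaciens. For R. flavefaciens against control the median was 0.03 without both mice, with 3 of 10 negative.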

How the data were processed

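RNA of the medial prefrontal cortex of 24 mice was sequenced from poly(A)-selected libraries that do not mark strand. According to the methods of the study, reads were aligned to GRCm38.p5 with Tophat2. The submitters' processing notes name TopHat2 2.1.0, Bowtie2 2.2.6, DESeq2 1.18.1 and the build mm9. Gene positions in the table matched GENCODE vM21 (GRCm38) for 14253 of 15438 shared genes. The deposited values are a normalized count signal, which the authors made by dividing each mouse's counts by 1 size factor. Whole reads were recovered from them (at least 99.9741% of values within 0.0051 of a whole number), 12811413 to 15607343 per mouse, with group medians of 13591497 (control), 14536037 (duloxetine), 13943370 (R. flavefaciens) and 14621656 (combined).

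Genes with a mean of at least 10 were tested by limma 3.58.1 on log2(value + 1) with a mean-variance trend, 1 fit over 4 groups, and Benjamini-Hochberg adjustment over 14974 genes at 0.05. Fold changes are on that scale. Alternatives were edgeR 4.0.16 and DESeq2 1.42.0 on recovered reads, other pseudocounts, filters, scalings and samples, a random block and removal of the trend with exonic length (loess span 0.3). R 4.3.3 and Python 3.11.15 were used, and the fits were tested on simulated data. The members, the marker lists and the partner lists were chosen with earlier results of these data known. Genes were named when called, when of smallest p in a comparison, when of highest level in a class or when of textbook role in cortex, and the other genes at an unadjusted p under 0.05 were added after their values were seen. Some genes counted among the members and lists are not reported here one by one.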

Additional observations from a re-analysis of the deposited data

Results flagged for a closer look

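In 5 of 176 groups of 6 mice, over 44 named Kcn genes, 1 mouse stood far from the other 5 of its group, where chance alone gives about 1 in 20. Kcnj10 had 2 such groups, with control mouse 2_3 at 4586.4 normalized counts (the others at 3711.8 to 3972.7) and R. flavefaciens mouse 9_3 at 3460.7 (the others at 4014.7 to 4335.8). R. flavefaciens mouse 8_4 was apart for Kcnip4, at 654.98 (the others at 747.68 to 796.73), and for Kcnt1, at 1689.7 (the others at 1264 to 1409.5). Duloxetine mouse 6_2 was at 1292.3 for Kcnc4 (the others at 1445.5 to 1525.2).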

How the results depend on the processing

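No called value changed direction under the alternatives run, while some values that were not called had the other sign. In the combined group against R. flavefaciens, for example, Kcnj6 ran from -0.08 to 0.36 over 36 other settings and Kcna3 from -0.17 to 0.27. For R. flavefaciens against control the 0 calls became 1 (1.33%) with DESeq2, with an adjusted p under 0.1 and with a random block for the first label number, against 3.26%, 3.87% and 1.48% of all genes, and 0 to 4 on leaving out 1 mouse (2 without 8_3, 1 without 9_1 and 4, namely Kcnk9, Kcna1, Kcna3 and Kcnma1, without 9_2, where 2.85%, 1.6% and 4.11% of all genes were called). For combined against R. flavefaciens the 2 calls became 0 with only the groups compared, by limma and by DESeq2, 4 without mice 8_4 and 9_3 (5.33% of Kcn genes, against 3.08% of all), and 0 to 3 on leaving out 1 mouse (0 without 7_2, 9_2, 10_2, 11_3, 11_4, 12_2 or control 1_1, and 1 without 8_3, 9_1, 9_3, 12_3, control 2_1, 2_2, 2_3, 3_1 or 3_3, or duloxetine 5_4, 6_2 or 6_3). For combined against control the 0 calls became 1 with DESeq2, with an adjusted p under 0.1, with the random block and with the length trend removed, against 1.45%, 0.841%, 0.394% and 0.435% of all genes, 2 (2.67%) with only the groups compared and without mice 8_4 and 9_3, against 1.31% and 2.26% of all genes, 4 (5.33%) with DESeq2 on only the groups compared, against 4.73%, and 0 to 1 on leaving out 1 mouse (1 without 9_3 or 12_4). For duloxetine against control 0 became 1 with DESeq2 on only the groups compared, against 0.187% of all genes. For duloxetine over both levels of the bacterium 0 became 3 (4%) with DESeq2, with an adjusted p under 0.1 and without mice 8_4 and 9_3, against 2.14%, 2.5% and 2.02% of all genes, 1 with the random block (against 1.7%), and 0 to 2 on leaving out 1 mouse (2 without 8_4 or 12_4, against 1.44% and 1.74%). The cause of these moves was not tested. The other 3 comparisons had 0 calls in all settings run. The family median stayed between -0.08 and -0.01 for R. flavefaciens, -0.07 and -0.02 for combined and -0.04 and -0.01 for duloxetine against control.

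Over 50 results on single genes, 658 values kept direction and side of the threshold, 24 moved past it, 32 moved behind it and 6 moved by more than the spread. No paired analysis was possible because no label number is shared between groups; the random block had a correlation of -0.05. The R. flavefaciens mice 7_2 and 8_4 had the fewest reads of the 24, and low genes such as Kcnk5 and Kcnj8 carry large counting error.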

Other observations

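Markers of blood and of glia other than astrocytes were read in the treated mice. Of 5 blood markers, 4 were higher than control at an unadjusted p under 0.05 after R. flavefaciens and 5 in the combined group (8.86% and 8.08% of all genes were), with medians of 0.75 and 0.78 on the log2 scale, and of 5 microglial markers 3 and 4 were, with medians of 0.18 and 0.20. After duloxetine alone 4 of 5 microglial markers were higher than control at that p, with a median of 0.19, and 0 of 5 blood markers, with a median of 0.30. With all mice in the fit, no marker of either list was called by limma at an adjusted p of 0.05. Without mice 8_4 and 9_3, 1 of 5 microglial markers was called in the combined group against control, against 2.26% of all genes. Without mice 8_4 and 9_3 the medians after R. flavefaciens were 0.53 for blood, with 0 at an unadjusted p under 0.05, and 0.16 for microglia, with 2. All oligodendrocyte markers were positive after R. flavefaciens, with a median of 0.13 and none at an unadjusted p under 0.05. Without both mice all 6 were negative, with a median of -0.11 and again none at that p. Of 3 choroid plexus markers tested 1, Ttr, was higher after R. flavefaciens at that p (log2 fold change 3.34), and none of the 3 was without both mice. Of 6 striatal markers none was under that p, with a median of 0.23, and without both mice 2 were, with a median of -0.06. The part of these cells in the Kcn values was not tested.

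Among the partner proteins, Ank3, the scaffold that anchors ion channels at the axon initial segment, stood at a log2 difference from control of -0.36 ± 0.09 (SE, adjusted p by limma = 0.0727) after R. flavefaciens, and Cntnap2, which clusters Kcna channels beside the node, had -0.21 ± 0.06 (SE, adjusted p by limma = 0.0806). These values were -0.23 and -0.11 without mice 8_4 and 9_3.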
